A study of Mus musculus with 45 samples.

Results

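RNA-seq counts were compared between 5 libraries of hippocampal neurons that had fired for 1 h in bicuculline (Bic, 50 µM) and then spent 1 h with tetrodotoxin (TTX, 1 µM), and 5 libraries of untreated neurons, 10 of the 45 libraries of the series. The 10 libraries were chosen by their treatment labels alone, and the labels pair them by culture preparation, with the numbers 1, 3, 6, 7 and 8. Bic blocks GABA type A receptors and thereby starts synchronized action potential (AP) firing, and TTX blocks the sodium channels that APs need. The comparison asks which transcripts still differed from the resting state 1 h after firing had been stopped. The neurons were dissociated from newborn C57BL/6N mice, received cytosine arabinoside, which kills dividing cells, and were treated at day in vitro 10 or 11. For the RNA-seq cells the study's methods name day 11. By the methods of the study Bic stayed in the medium during the hour with TTX. Neither group received TTX without Bic, and the control was untreated, so a change retained from the firing and an effect of TTX in resting neurons cannot be told apart. The 5 libraries of 1 h Bic and the 5 of 2 h Bic from the same preparations, without TTX, are used as the state before TTX and as uninterrupted firing of the same total time.

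Background on this system is well established. Calcium that enters through synaptic NMDA receptors and L-type channels activates kinases that phosphorylate CREB and the SRF partner ELK1 within minutes, and preformed factors then switch on immediate early genes such as Fos, Egr1 and Npas4. Their protein products, with CREB, drive a later wave of effector genes, including Bdnf, Inhba, Homer1 and Nptx2, that act on synapses and survival. Immediate early mRNAs are in general short-lived, and phosphatases and kinase inhibitors such as Dusp1 and Trib1 belong to the same response and limit it.

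The sequences shown first are those of transcripts and promoters that the values below turn on. Mir132 and Mir212 lie side by side on chromosome 11 and were both far above the control after TTX. Their mature 3p forms (RefSeq, GRCm38.p6, plus strand) share the seed, bases 2 to 8, in capitals:
miR-132-3p (chr11:75173723-75173744): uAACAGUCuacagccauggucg
miR-212-3p (chr11:75173443-75173464): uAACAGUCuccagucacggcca
The libraries were made from poly-A RNA, so the counts on both genes are reads of the primary transcript over the hairpin, not mature miRNA.

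Promoter windows run from 250 bases before to 50 after an annotated start (RefSeq, GRCm38.p6). Dusp1, Errfi1 and Scg2 each had a window with the palindromic cAMP response element (CRE, TGACGTCA, in capitals) and were above the control after TTX, although their courses differed. Ldha, which was not called against the control, has one too and is not shown:
Dusp1 (chr17:26508423-26508722, minus strand): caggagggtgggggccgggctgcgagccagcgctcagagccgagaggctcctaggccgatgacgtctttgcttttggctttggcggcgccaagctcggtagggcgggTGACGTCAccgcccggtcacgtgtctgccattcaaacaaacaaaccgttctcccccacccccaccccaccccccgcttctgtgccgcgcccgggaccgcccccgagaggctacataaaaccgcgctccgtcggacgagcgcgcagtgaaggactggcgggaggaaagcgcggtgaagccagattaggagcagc
Errfi1 (chr4:150854820-150855119, plus strand): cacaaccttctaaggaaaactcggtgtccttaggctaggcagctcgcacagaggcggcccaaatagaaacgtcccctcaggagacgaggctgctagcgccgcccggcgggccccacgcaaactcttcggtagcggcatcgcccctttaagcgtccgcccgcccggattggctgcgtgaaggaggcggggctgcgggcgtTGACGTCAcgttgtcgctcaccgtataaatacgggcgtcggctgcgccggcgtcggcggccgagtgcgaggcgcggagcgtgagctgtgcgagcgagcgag
Scg2 (chr1:79439977-79440276, minus strand): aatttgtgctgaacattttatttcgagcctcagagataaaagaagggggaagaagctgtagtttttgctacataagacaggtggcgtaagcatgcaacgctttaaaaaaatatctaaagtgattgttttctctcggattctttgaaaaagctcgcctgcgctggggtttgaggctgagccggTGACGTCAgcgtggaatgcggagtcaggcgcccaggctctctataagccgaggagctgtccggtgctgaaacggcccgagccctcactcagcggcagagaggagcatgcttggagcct
Vcl and Filip1l each had a window with a CArG box, the letters that SRF binds (in capitals), and both ended above the level of 2 h Bic. Of the other genes named by the rule with a CArG box, Hes5 was above 2 h Bic, Egr2 and Actg1 were below it, and Fhl2, Myl9 and Ldha were not called against it:
Vcl (chr14:20929148-20929447, plus strand): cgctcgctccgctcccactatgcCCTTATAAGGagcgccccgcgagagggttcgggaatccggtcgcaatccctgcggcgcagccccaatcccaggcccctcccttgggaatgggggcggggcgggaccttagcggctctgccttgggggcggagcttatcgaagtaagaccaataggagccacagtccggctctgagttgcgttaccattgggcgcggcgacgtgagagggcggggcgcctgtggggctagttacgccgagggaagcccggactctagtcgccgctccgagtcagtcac
Filip1l (chr16:57548992-57549291, plus strand): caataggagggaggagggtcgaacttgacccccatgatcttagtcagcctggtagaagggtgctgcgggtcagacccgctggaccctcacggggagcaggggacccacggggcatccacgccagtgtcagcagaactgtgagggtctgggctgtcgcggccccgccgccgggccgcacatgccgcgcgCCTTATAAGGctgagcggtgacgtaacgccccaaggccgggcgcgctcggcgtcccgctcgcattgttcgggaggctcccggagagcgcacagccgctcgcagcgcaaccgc

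Of 15400 genes tested, 2042 (13.3%) were higher and 1660 (10.8%) lower after 1 h Bic + 1 h TTX than in the control (edgeR quasi-likelihood test with preparation as a block, Benjamini-Hochberg adjusted p under 0.05). The changes were lopsided in size. At least a 2-fold difference was reached by 309 of the higher genes and 19 of the lower ones, and at least a 4-fold difference by 72 and 0. The median log2 fold change was 0.42 among the higher and −0.32 among the lower genes, against −0.0065 over all genes. All 5 preparations moved the same way for 1909 of the higher and 1525 of the lower genes. The 2 groups did not overlap at all for 1094 and 791 of them (12.9% of all genes tested had groups that did not overlap). Without the block the test called 1294 higher and 915 lower genes, and without preparation 7 it called 1484 and 870. The control libraries held between 11316580 and 50527649 counts (median 21039805) and the TTX libraries between 23895011 and 64680212 (median 38220221).

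**Figure D1:**
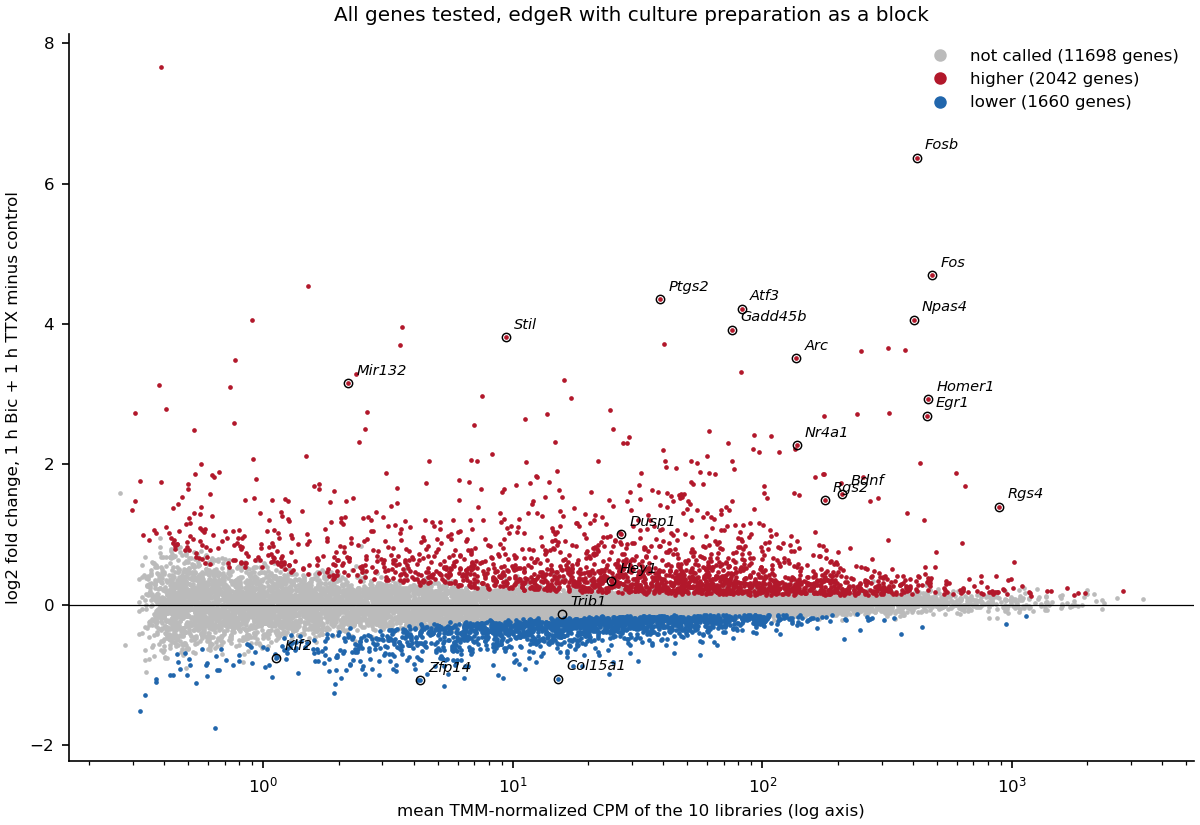
Log2 fold change between 1 h Bic + 1 h TTX and the control against mean level (CPM after TMM normalization, log axis) for all 15400 genes, 2042 higher in red, 1660 lower in blue and 11698 not called in grey. The points far above 0, up to 6.37 for Fosb at mean levels over 1, have no counterpart of the same size below 0.

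Fosb and Fos led the rises over the control among genes with a mean of at least 1 CPM. Such a rise is not always a retained 1 h level, since Atf3, Gadd45b and Stil were higher after TTX than at 1 h Bic. The 10 largest rises at a mean of at least 1 CPM (the share of a library's counts, scaled to a fixed total after TMM normalization), each in 5 of 5 preparations, were those of Fosb, Fos, Esm1, Ptgs2, Atf3, Npas4, Fosl1, Gadd45b, Stil and Egr2. Transcription factors make up 6 of them. Ptgs2 encodes cyclooxygenase 2, Gadd45b a stress-inducible regulator of DNA demethylation and kinase signalling, Esm1 a secreted proteoglycan and Stil a protein needed for centriole duplication. Fosb, an AP-1 subunit, had 11.7, 4.86, 9.68, 10.3 and 13.2 CPM in the 5 controls (here and below in the order of preparations 1, 3, 6, 7 and 8) and 977, 873, 856, 659 and 734 CPM after TTX. Its log2 fold change was 6.37 ± 0.20 (SE, n = 5 pairs; edgeR adjusted p = 2.85e-09). Ptgs2 went from a mean of 3.67 ± 1.35 to 74.2 ± 22.2 CPM (SD, n = 5), with a log2 fold change of 4.35 ± 0.12 (edgeR adjusted p = 1.39e-09). Stil, at 1.19 ± 0.227 CPM in the control and 3.53 ± 0.588 after 1 h Bic, stood at 17.5 ± 3.74 after TTX. Esm1 was the least abundant of the 10, at 0.117 ± 0.05505 and 2.91 ± 0.546 CPM, and its log2 fold change of 4.55 ± 0.23 rests on controls of almost no reads.

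Of the 24 immediate early transcription factors listed, all tested, 23 were higher than the control and 1, Klf2, was lower. Their median log2 fold change was 2.75, against −0.0065 over all genes. Set against 1 h Bic, where 14.9% of the 15540 genes tested were higher after TTX and 14.5% lower (29.4% in all), 9 of the 24 were higher, 5 lower and the rest not called. Some of the factors did not differ detectably from their 1 h level, some were below it and some above it.

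Fos, the AP-1 subunit used as the standard marker of firing, was still far above rest. The control libraries held 40.04, 28.3, 32.6, 45.2 and 32.5 CPM and the TTX libraries 994, 980.5, 1026, 837 and 769.6 CPM, so the groups were far apart. After 1 h Bic the same preparations had held 1065, 853, 1059, 1050.2 and 1044 CPM. The log2 fold change to the control was 4.69 ± 0.12 (edgeR adjusted p = 1.21e-09) and that to 1 h Bic −0.15 ± 0.080 (edgeR adjusted p = 0.182). In CPM, 91.4% ± 16.7 (SD, n = 5) of the rise above the control at 1 h was still present. Without preparation 3, the difference to 1 h Bic was −0.24 and called (edgeR adjusted p = 0.00971). Uninterrupted firing had carried Fos further, to 1497 ± 233 CPM at 2 h, and the TTX level lay below it (log2 difference −0.71 ± 0.042, edgeR adjusted p = 7.14e-11).

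Egr1, a zinc finger factor that binds GC-rich promoters, was also far above rest and not called against 1 h Bic. Its controls held 182, 83.4, 105, 86.6 and 177 CPM and its TTX libraries 884, 817, 966, 602 and 668 CPM, with no overlap. The log2 fold change was 2.69 ± 0.18 to the control (edgeR adjusted p = 1.17e-06) and −0.35 ± 0.13 to 1 h Bic (edgeR adjusted p = 0.102), and 77.6% ± 21.4 (SD, n = 5) of the 1 h rise remained. Leaving out preparation 3 gave a called difference to 1 h Bic of −0.45 (edgeR adjusted p = 0.0119). Among its relatives, Egr2 was above the control by 3.71 ± 0.16 and not called against 1 h Bic (−0.20). Egr4, named like the other genes outside the rule after its values were seen, had 3.61 ± 0.12 and −0.13 (0.0062 without preparation 7). Egr3 had 2.74 ± 0.071 to the control and had risen by 0.69 ± 0.075 over 1 h Bic (edgeR adjusted p = 2.18e-05), and was not called against 2 h Bic (−0.022; 0.027 without preparation 7). Junb, another AP-1 subunit, held 46.5 ± 8.71 CPM in the control and 591 ± 88.8 after TTX, and its difference to 1 h Bic, −0.39, was not called (edgeR adjusted p = 0.152) except without preparation 3 (−0.53, edgeR adjusted p = 0.00385), with all 45 libraries in the fit and by DESeq2 without the block.

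Npas4, a neuron-restricted factor that answers selectively to calcium, had lost part of its 1 h level and was still far above rest. The controls held 54.1, 29.2, 39.96, 67.9 and 40.2 CPM, 1 h Bic 1426, 1014, 1273, 1408 and 1503 CPM and the TTX libraries 890.4, 787, 845, 761 and 519.9 CPM. Every TTX library was below every 1 h Bic library and above every control. The log2 fold change was 4.06 ± 0.16 to the control (edgeR adjusted p = 2.19e-08) and −0.82 ± 0.18 to 1 h Bic (edgeR adjusted p = 0.0207), a call that was lost without preparation 1 or 7 (edgeR adjusted p = 0.0787 and 0.0772). Of the 1 h rise, 57.5% ± 16.5 (SD, n = 5) remained in CPM, and 83.4% on a log2 scale.

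Nr4a1, an orphan nuclear receptor, had lost more. Its levels were 51.5, 32.4, 51.9, 56.1 and 39.8 CPM in the control and 213, 253, 334, 189 and 151 CPM after TTX, where 1 h Bic had given 666, 508, 645, 671 and 739 CPM. The log2 differences were 2.27 ± 0.16 to the control (edgeR adjusted p = 1.46e-06) and −1.55 ± 0.24 to 1 h Bic (edgeR adjusted p = 0.00636). This left 31.6% ± 14.5 (SD, n = 5) of the rise in CPM, and 59.6% on a log2 scale. Both relatives of Nr4a1 went the other way after 1 h Bic. Nr4a2 held 688 ± 47.4 CPM against 309 ± 44.8 at 1 h Bic, a log2 difference of 1.15 ± 0.068 (edgeR adjusted p = 3.59e-08), and Nr4a3 held 987 ± 50.04 against 631 ± 90.04 CPM, a difference of 0.65 ± 0.069 (edgeR adjusted p = 1.46e-05).

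Klf4 and Ier2 belonged with Npas4 and Nr4a1. Klf4, a Krüppel-like factor, was above the control by 2.97 ± 0.14 and below 1 h Bic (log2 difference −2.13 ± 0.18; edgeR adjusted p = 7.14e-08 and 0.000302). Ier2 was above the control by 2.05 ± 0.13 (edgeR adjusted p = 6.42e-07), and its difference of −0.87 ± 0.20 to 1 h Bic lost the call without preparation 1, 7 or 8 (edgeR adjusted p = 0.108, 0.0919 and 0.0709). Atf3, a CREB-family factor tied to neuronal survival, had 5.37, 5.66, 7.27, 4.15 and 27.96 CPM in the controls and 157, 161, 175, 119 and 162 CPM after TTX. The control of preparation 8 was far above the other 4, and the groups still did not overlap. The log2 fold change of Atf3 to the control was 4.22 ± 0.37 (edgeR adjusted p = 9.33e-05). Unlike Klf4 and Ier2, Atf3 was above 1 h Bic, by 1.00 ± 0.18 (edgeR adjusted p = 0.0104). That call was lost without preparation 1 (edgeR adjusted p = 0.057). Against 2 h Bic Atf3 was lower (−0.69 ± 0.062, edgeR adjusted p = 3.03e-06). Klf2, the single factor that was lower, was at 1.42 ± 0.5197 and 0.836 ± 0.337 CPM, a log2 fold change of −0.76 ± 0.20 (edgeR adjusted p = 0.016), and was not called without the block (edgeR adjusted p = 0.127) or without preparation 6 or 7 (edgeR adjusted p = 0.0518 and 0.112).

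**Figure D2:**
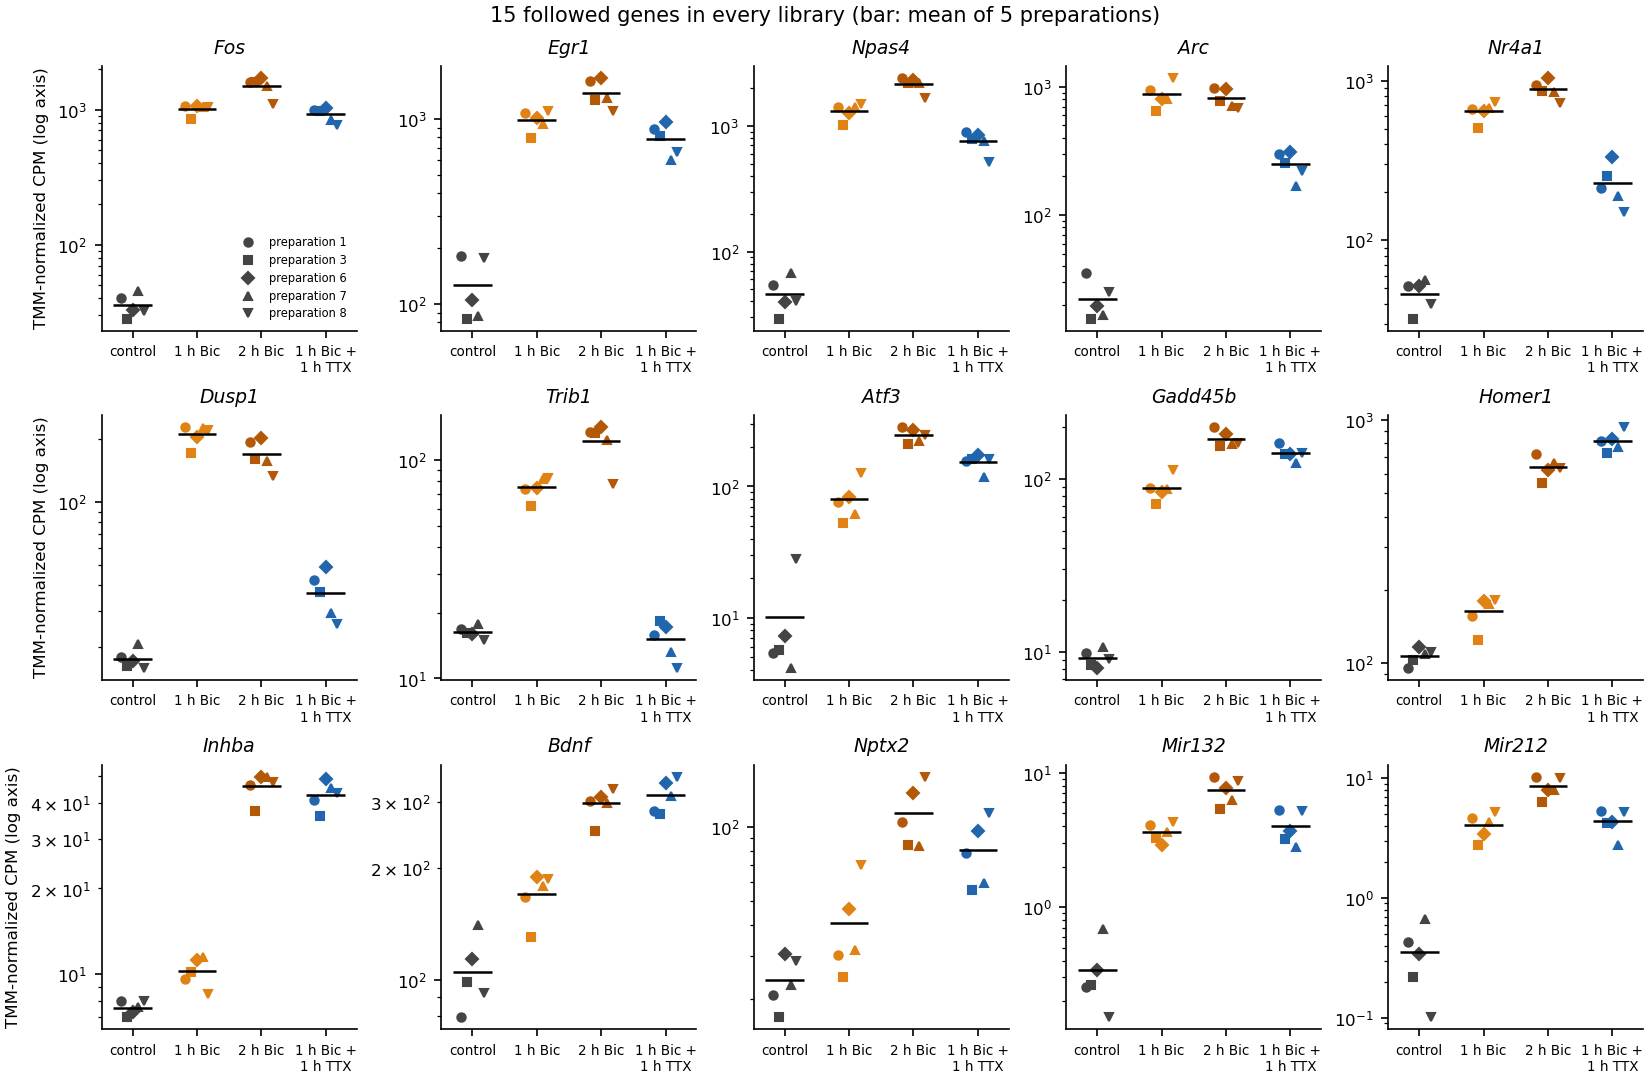
Levels of the 15 followed genes (CPM after TMM normalization, log axes that differ between panels) in each library of 4 conditions, with 1 symbol per preparation and a bar at the mean of 5. After TTX, Fos stays near its 1 h Bic level, Arc, Nr4a1 and Dusp1 sit between 1 h Bic and the control, Trib1 overlaps the control, and Homer1, Inhba and Bdnf stand at or above their 2 h Bic level or close to it.

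The 26 feedback inhibitors of activity signalling, all tested, split more widely, with 17 higher than the control, none lower and 9 not called (median log2 fold change 0.64), against 13.3% of all genes higher and 10.8% lower. Dusp1, a nuclear phosphatase that switches off MAP kinases, had 17.9, 16.2, 17.2, 20.8 and 15.96 CPM in the controls and 42.1, 37.01, 48.8, 29.2 and 25.8 CPM after TTX. These groups were close but did not overlap, and both were far below the 228, 172, 206, 228 and 222 CPM of 1 h Bic. The log2 differences were 1.01 ± 0.13 to the control and −2.57 ± 0.19 to 1 h Bic (edgeR adjusted p = 0.000202 and 0.00029). In CPM 10.1% ± 5.51 (SD, n = 5) of the rise remained, and on a log2 scale 28.3%.

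Trib1, a pseudokinase that marks targets for degradation, was no longer distinguishable from its resting level. Its controls held 16.9, 16.1, 16.04, 17.8 and 15.05 CPM and its TTX libraries 15.8, 18.4, 17.3, 13.2 and 11.2 CPM, which overlap, after 74.02, 61.8, 74.7, 81.9 and 82.99 CPM at 1 h Bic. The log2 difference to the control was −0.14 ± 0.099 (edgeR adjusted p = 0.362; 95% confidence interval −0.35 to 0.084), and the share of the rise that remained was −1.51% ± 5.08 (SD, n = 5). Dusp6, a cytoplasmic phosphatase of ERK, was also not called against the control (0.36 ± 0.14, edgeR adjusted p = 0.0799). It was called without preparation 8 (0.49, edgeR adjusted p = 0.0337), with all 45 libraries in 1 fit (edgeR adjusted p = 0.0118) and on genes with at least 1 read (edgeR adjusted p = 6.76e-07). Its level of 219 ± 19.4 CPM at 1 h Bic had come down to 68.1 ± 21.01 (log2 difference −1.73 ± 0.18, edgeR adjusted p = 0.00116). Btg2, an antiproliferative factor that promotes mRNA deadenylation, fell from 344 ± 28.7 CPM at 1 h Bic to 39.4 ± 10.6 and stayed above its control of 20.8 ± 2.75 by 0.88 ± 0.16 on the log2 scale (edgeR adjusted p = 0.00205), a call that was lost without preparation 3 (edgeR adjusted p = 0.144).

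Other inhibitors had not come down. Errfi1, which binds and blocks the EGF receptor, went from 34.2 ± 2.31 to 183 ± 12.8 CPM, a log2 fold change of 2.41 ± 0.064 (edgeR adjusted p = 1.28e-09), and stood 0.71 ± 0.058 above 1 h Bic (edgeR adjusted p = 2.04e-07). It shares the CRE letters printed above with Dusp1, which had moved the opposite way since 1 h Bic. Sik1, a kinase that restrains CREB coactivators, was 1.87 ± 0.095 above the control and −0.13 from 1 h Bic (edgeR adjusted p = 1.21e-07 and 0.188). Rgs2 and Rgs4, which speed the shut-off of G proteins, were above the control by 1.49 ± 0.064 and 1.396 ± 0.055 (edgeR adjusted p = 3.23e-08 and 1.96e-08). Rgs4 held 1286 ± 59.9 CPM after TTX. The 2 members with the largest negative differences, Dusp2 (−0.22) and Trib3 (−0.21), were not called.

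Of 9 activity-regulated survival genes, listed because synaptic activity induces them and they protect neurons, 8 were higher than the control and 1, Bcl6, was not called (median 2.51), against 13.3% of all genes higher. Atf3, Btg2, Npas4 and Nr4a1 are described above. Gadd45b held 9.88, 8.35, 8.09, 10.6 and 9.15 CPM in the controls and 162, 139.6, 140.2, 123 and 143 CPM after TTX, with no overlap and little spread, a log2 fold change of 3.92 ± 0.087 (edgeR adjusted p = 6.57e-10). It had gone on to rise after 1 h Bic, by 0.67 ± 0.081 (edgeR adjusted p = 5.92e-05).

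Most of the secreted effector genes listed were higher after TTX than before it. Of 22 secreted signals and neuropeptides, 14 were higher than the control, none lower and 8 not called (median log2 fold change 0.57), against 13.3% and 10.8% of all genes. Against 1 h Bic 13 were higher and 2 lower, where 14.9% of all genes were higher and 14.5% lower. Inhba, the subunit of activin A, held 8.01, 7.03, 7.31, 7.61 and 7.98 CPM in the controls, 9.599, 10.2, 11.2, 11.5 and 8.49 CPM at 1 h Bic and 41.3, 36.02, 48.9, 45.2 and 43.4 CPM after TTX. The 1 h Bic libraries were already just above the controls, and the TTX libraries are well apart from both. The log2 differences were 2.51 ± 0.073 to the control and 2.06 ± 0.068 to 1 h Bic (edgeR adjusted p = 1.97e-09 and 5e-12). The TTX level amounted to 91.6% ± 4.97 (SD, n = 5) of the rise that 2 h of uninterrupted firing gave. The remaining difference of −0.12 ± 0.045 to 2 h Bic was called (edgeR adjusted p = 0.0415) but not without the block (edgeR adjusted p = 0.389), nor without preparation 1, 3, 7 or 8 (edgeR adjusted p = 0.111, 0.0854, 0.201 and 0.12).

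Bdnf, the neurotrophin that signals through TrkB, had 79.7, 99.01, 114, 141 and 92.7 CPM in the controls, 168, 131, 189, 179 and 187 CPM at 1 h Bic and 284, 279, 339, 312 and 352 CPM after TTX. The TTX libraries were above all others of these 3 groups. The log2 differences were 1.59 ± 0.093 to the control and 0.87 ± 0.050 to 1 h Bic (edgeR adjusted p = 3.83e-07 and 3.87e-09), and the difference to 2 h Bic, 0.053 ± 0.041, was not called (edgeR adjusted p = 0.349) except without preparation 1 (0.10, edgeR adjusted p = 0.0435). Nptx2, a pentraxin that clusters AMPA receptors, had 20.7, 16.9, 30.5, 22.8 and 28.6 CPM in the controls and 78.9, 55.6, 96.3, 59.5 and 115 CPM after TTX. Preparations 6 and 8 were the highest in both groups, and the groups did not overlap. Its log2 fold change was 1.72 ± 0.081 (edgeR adjusted p = 7.14e-08), and it stood 1.02 ± 0.078 above 1 h Bic and below 2 h Bic (−0.52 ± 0.041; edgeR adjusted p = 4.59e-07 and 5.83e-09), both calls lost without the block (edgeR adjusted p = 0.0617 and 0.212).

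Scg2, the precursor of secretoneurin, and Vgf, a neuropeptide precursor, were above the control by 1.21 ± 0.051 and 0.88 ± 0.073 (edgeR adjusted p = 2.88e-08 and 7.03e-06). Cck (−0.15) and Ntf3 (−0.28) had the largest negative differences of the list and were not called. Ccn1, a matricellular protein, went from 7.83 ± 1.69 CPM in the control to 321 ± 37.5 at 1 h Bic and was at 7.99 ± 1.92 after TTX. Its log2 difference was −5.34 ± 0.11 to 1 h Bic (edgeR adjusted p = 4.78e-11) and 0.020 ± 0.099 to the control (edgeR adjusted p = 0.911), where its sign changed without preparation 3 or 6 (−0.031 and −0.065).

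Of 20 synaptic plasticity effectors and scaffolds, 10 were higher than the control and 10 not called, against 13.3% of all genes higher, and 3 were lower without preparation 3. The 10 that were called include the activity-induced members Ptgs2, Arc, Homer1 and Pcdh8. Arc, which drives the endocytosis of AMPA receptors, had 35.2, 15.6, 19.4, 16.6 and 25.1 CPM in the controls, 934, 648, 796, 806 and 1162 CPM at 1 h Bic and 299, 255, 312, 168 and 221 CPM after TTX. The 3 groups did not overlap, and preparation 7 was the lowest after TTX. The log2 differences were 3.52 ± 0.14 to the control and −1.81 ± 0.21 to 1 h Bic (edgeR adjusted p = 2.46e-08 and 0.00229). In CPM 28.3% ± 9.84 (SD, n = 5) of the 1 h rise remained, and on a log2 scale 66.1%.

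Homer1, whose short activity-induced form uncouples metabotropic glutamate receptors from their scaffold, showed the opposite course. It had 95.5, 103, 117, 109 and 111 CPM in the controls, 155, 124, 180.4, 174 and 181 CPM at 1 h Bic and 821, 730.2, 835, 772 and 930.4 CPM after TTX. Reads were counted per gene, so the short and long forms are not separated. The log2 differences were 2.93 ± 0.058 to the control and 2.33 ± 0.057 to 1 h Bic (edgeR adjusted p = 4.35e-10 and 2.78e-13). In every preparation Homer1 was also higher than after 2 h Bic, 724, 549, 619, 661 and 634 CPM, with a log2 difference of 0.34 ± 0.047 (edgeR adjusted p = 1.56e-05). Pcdh8, an activity-induced protocadherin, was above the control by 1.88 ± 0.077 (edgeR adjusted p = 2.37e-08). Dlgap3 (−0.11) and Homer3 (−0.16), a scaffold and the constitutive relative of Homer1, were not called, although Homer3 was without preparation 3 (−0.17, edgeR adjusted p = 0.0288).

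The miRNA host locus was still above the control and not called against 1 h Bic. Mir132 had 0.256, 0.265, 0.3398, 0.688 and 0.153 CPM in the controls and 5.25, 3.202, 3.67, 2.796 and 5.196 CPM after TTX, and Mir212 had 0.426, 0.221, 0.3398, 0.669 and 0.102 and 5.29, 4.25, 4.28, 2.76 and 5.25 CPM. Both pairs of groups are apart, with controls of few reads. The log2 differences to the control were 3.15 ± 0.29 and 3.29 ± 0.30 (edgeR adjusted p = 1.64e-05 and 1.69e-05), and those to 1 h Bic, 0.097 and 0.078, were not called (edgeR adjusted p = 0.578 and 0.726). That of Mir212 changed sign without preparation 3 (−0.062). The 2 genes lie in 1 primary transcript and are not independent of each other.

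**Figure D3:**
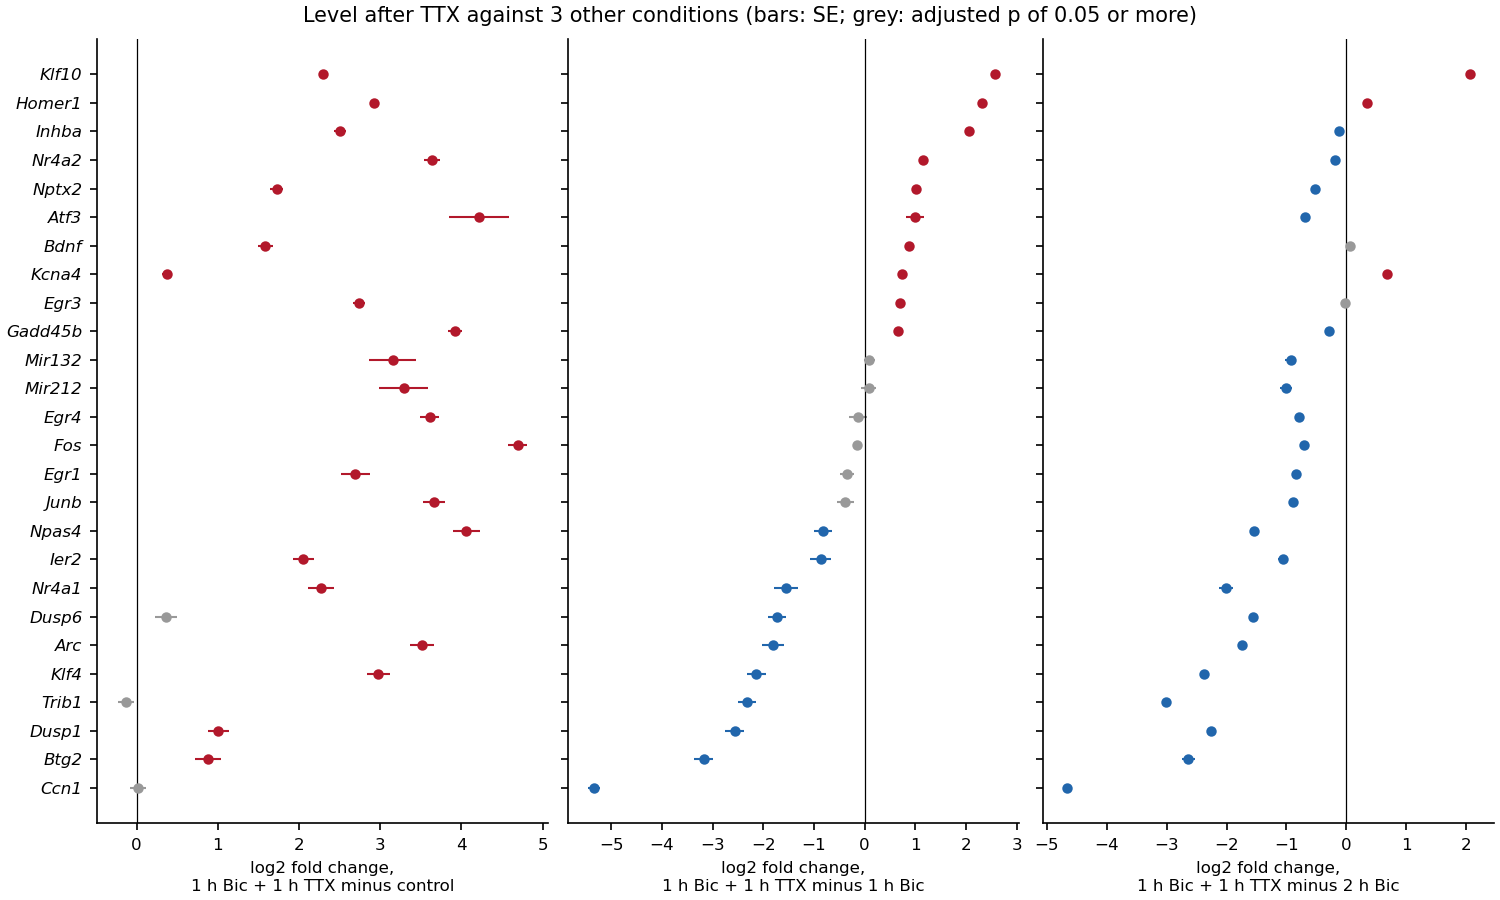
Log2 fold changes (points, with SE) of the 15 followed and 11 added genes after 1 h Bic + 1 h TTX, against the control (left), 1 h Bic (middle) and 2 h Bic (right), ordered by the middle panel. Grey points were not called. Klf10, Homer1 and Inhba are the highest against 1 h Bic and Ccn1, Btg2 and Dusp1 the lowest, and Klf10, Homer1 and Kcna4 lie above 2 h Bic. The 3 panels share the TTX libraries.

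Levels after TTX were also set against uninterrupted firing. Against 2 h Bic, 15.8% of the 15570 genes tested were higher after TTX and 16.2% lower (32.1% in all), and of the 24 immediate early factors 20 were lower and 1 higher. That 1 was Klf10, a Krüppel-like factor induced by TGF-β. It held 24.96, 22.99, 23.8, 22.9 and 28.6 CPM in the controls and 121, 121, 117, 118 and 129 CPM after TTX, while 1 h Bic had 20.3 ± 2.67 and 2 h Bic 28.6 ± 2.07 CPM. Its log2 difference was 2.30 ± 0.056 to the control, 2.58 ± 0.062 to 1 h Bic and 2.07 ± 0.047 to 2 h Bic (edgeR adjusted p = 8.74e-10, 2.78e-13 and 1.23e-18). Kcna4, the Kv1.4 subunit of A-type potassium channels, held 47.8 ± 6.45 CPM in the control, 38.3 ± 4.56 at 2 h Bic and 61.9 ± 3.78 after TTX, 0.68 ± 0.049 above 2 h Bic on the log2 scale (edgeR adjusted p = 1.62e-09).

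Among the Notch pathway genes (13 of 14 tested), 3 were higher than the control and 1 lower, against 13.3% and 10.8% of all genes. The 3 are the target repressors Hey2, Hes5 and Hey1. Hey2 was at 0.962 ± 0.372 CPM in the control and 2.74 ± 0.7599 after TTX (1.47 ± 0.22, edgeR adjusted p = 0.000665), and 1.00 ± 0.15 above 2 h Bic (edgeR adjusted p = 2.69e-05). Hes5 and Hey1 were above the control by 0.64 ± 0.14 and 0.33 ± 0.059 (edgeR adjusted p = 0.00563 and 0.0018), and Hes5 was not called without the block (edgeR adjusted p = 0.155). Against 1 h Bic the log2 differences of Hey2, Hes5 and Hey1 were 1.38, 0.83 and 0.43 (edgeR adjusted p = 0.000129, 0.000168 and 1.37e-05). Against 2 h Bic those of Hes5 and Hey1 were 0.50 and 0.13 (edgeR adjusted p = 0.00225 and 0.0429). The ligand Jag2 was lower (−0.33 ± 0.094, edgeR adjusted p = 0.0254), a call lost without preparation 1, 6 or 7 (edgeR adjusted p = 0.0952, 0.0881 and 0.107).

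Of 16 SRF and actin cytoskeleton targets tested, 5 were higher and 1 lower, against 13.3% and 10.8% of all genes. Vcl, the adhesion protein vinculin, rose from 33.1 ± 3.14 to 54.6 ± 5.66 CPM (0.72 ± 0.077, edgeR adjusted p = 5.65e-05), 0.32 ± 0.046 above 2 h Bic (edgeR adjusted p = 2.32e-05). Filip1l, a filamin-interacting protein, was at 1.58 ± 0.306 and 2.62 ± 0.357 CPM (0.75 ± 0.14, edgeR adjusted p = 0.00252), 0.73 ± 0.12 above 2 h Bic (edgeR adjusted p = 0.000136). Actg1, with a CArG box in its promoter window as well, was not called (0.078), and Fhl2, with another, was lower (−0.21 ± 0.057, edgeR adjusted p = 0.0216) but not without the block (edgeR adjusted p = 0.0526) or without preparation 7 or 8 (edgeR adjusted p = 0.104 and 0.0637).

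Of 16 circadian clock genes 7 were higher and 1 lower, against 13.3% and 10.8% of all genes. Per1 and Per2, repressors of the clock, were above the control by 1.86 ± 0.11 and 1.42 ± 0.090 (edgeR adjusted p = 3.09e-07 and 7.24e-07), and Per2, at 56.5 ± 8.76 CPM, exceeded its 2 h Bic level of 39.96 ± 10.3 (0.50 ± 0.063, edgeR adjusted p = 2.2e-05). Dbp, an output factor of the clock, was lower (−0.39 ± 0.086, edgeR adjusted p = 0.00665), but not without the block or without preparation 7 (edgeR adjusted p = 0.114 and 0.0523). The related factor Tef was not called (−0.079).

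Of 24 potassium and HCN channel genes 6 were higher and 2 lower, of 25 sodium and calcium channel genes 6 were higher, of 13 AMPA and NMDA receptor genes 4 and of 17 GABA transmission genes 5, where 13.3% of all genes were higher and 10.8% lower. Most of these counts changed when 1 preparation was left out, which also leaves fewer pairs to test. The sodium and calcium channel list had 2 higher genes without preparation 7 and 3 without preparation 8, and 2 lower ones without preparation 3. The AMPA and NMDA receptor list had 1 higher gene without preparation 7 and 2 without preparation 1 or 8. The GABA list had 8 without preparation 3 and 3 without preparation 1, 6 or 7. Without the block each of these 3 lists had 1. The lower potassium and HCN channel genes numbered 1 without the block or without preparation 1 or 6. Kcna1, the Kv1.1 subunit that limits firing, went from 87.4 ± 26.2 to 154 ± 8.94 CPM (0.87 ± 0.13, edgeR adjusted p = 0.000496), and the silent subunit Kcnf1 was higher by 0.85 ± 0.059 (edgeR adjusted p = 1.7e-06). Kcnv1, another silent subunit, was lower (−0.41 ± 0.056, edgeR adjusted p = 0.000358). Rem2, a small GTPase that inhibits calcium channels, was higher by 1.12 ± 0.097 (edgeR adjusted p = 9.49e-06). The largest differences of the receptor lists were 0.25 for Cacng3, 0.22 for Gria4, 0.36 for Gad2 and 0.32 for Gabrg3, and the calls of Cacng3 and Gad2 were lost without the block (edgeR adjusted p = 0.39 and 0.109), that of Cacng3 also without preparation 1 or 7 (edgeR adjusted p = 0.057 and 0.103). Grin2b, an NMDA receptor subunit, was not called (0.073; −0.039 without preparation 3).

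The counts of the metabolic and stress lists stand against 13.3% of all genes higher and 10.8% lower. Slc16a1, the lactate and pyruvate transporter MCT1, went from 47.7 ± 4.29 to 222 ± 16.2 CPM (2.21 ± 0.052, edgeR adjusted p = 8.05e-10), and the glucose transporter gene Slc2a1 from 22.6 ± 3.701 to 60.3 ± 9.66 CPM (1.39 ± 0.089, edgeR adjusted p = 8.04e-07). In their list of 17 tested genes 5 were higher and none lower. The glycolytic enzyme gene Pkm was not called (0.031). Of 12 cytosolic heat shock genes 6 were higher, with Dnajb1 at 1.04 ± 0.093 and Hspa1b at 0.93 ± 0.10 (edgeR adjusted p = 1.33e-05 and 7.87e-05). Hspa1b has a near-identical neighbour, Hspa1a, and reads that match both were not counted, so its level is uncertain. Of 17 endoplasmic reticulum genes 6 were higher (11 without preparation 3 and 3 without the block), led by the cochaperone gene Dnajb9 at 0.60 ± 0.069 (edgeR adjusted p = 9.33e-05). Of 21 cholesterol synthesis genes 6 were higher and 2 lower, and without the block 3 and 0. The lower ones numbered 0 without preparation 7 and 1 without preparation 1.

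The remaining listed genes with the most counts or the lowest differences moved by little. The AMPA receptor subunit gene Gria1 was higher by 0.21 ± 0.055 (edgeR adjusted p = 0.0179) but not without the block or without preparation 7 or 8 (edgeR adjusted p = 0.149, 0.0539 and 0.0538). Gem, a GTPase related to Rem2, was higher by 0.48 ± 0.11 (edgeR adjusted p = 0.0105) but not without the block or without preparation 7 (edgeR adjusted p = 0.0643 and 0.0813). The silent potassium channel subunit gene Kcns2 was lower (−0.23 ± 0.058, edgeR adjusted p = 0.0147) but not without the block or without preparation 1 or 6 (edgeR adjusted p = 0.0524, 0.0522 and 0.0535).

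Uncalled members among the channels and receptors were Kcnq3 (0.20), Scn8a (0.17), Scn4b (−0.19), Scn2b (−0.13), Grin2c (−0.13) and Gabra5 (−0.099). Kcnq3 was called without preparation 1 (edgeR adjusted p = 0.0365), and Scn2b without preparation 3 (edgeR adjusted p = 0.00407). On genes with at least 1 read Kcnq3 and Scn8a were called (edgeR adjusted p = 0.00338 and 0.0162), and with all 45 libraries in 1 fit Scn2b (edgeR adjusted p = 0.0333). The stress factor gene Atf4 and the chaperone complex gene Sdf2l1 were higher by 0.32 ± 0.051 and 0.50 ± 0.10 (edgeR adjusted p = 0.000847 and 0.00449). In the same list Canx (0.058), Creld2 (−0.19) and Manf (−0.14) were not called. Nor were Hspa8 (0.095), Pfkl (−0.13), Myl9 (−0.11) and Dll3 (−0.25) of other lists. Without preparation 3, Canx, Hspa8 and Pfkl were called (edgeR adjusted p = 0.0407, 0.0359 and 0.0469). Manf was called with all 45 libraries in 1 fit (edgeR adjusted p = 0.0308).

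Of the enzymes of cholesterol synthesis, Cyp51 was higher by 0.41 ± 0.061 (edgeR adjusted p = 0.000557). Hmgcs1 was higher by 0.16 ± 0.045 (edgeR adjusted p = 0.0243), but not without the block (edgeR adjusted p = 0.306) or without preparation 1, 6, 7 or 8 (edgeR adjusted p = 0.0552, 0.1, 0.089 and 0.13). Dhcr7 and Mvd were lower (−0.20 ± 0.051 and −0.23 ± 0.052; edgeR adjusted p = 0.0148 and 0.00902). Neither was called without the block (edgeR adjusted p = 0.119 and 0.308) or without preparation 7 (edgeR adjusted p = 0.0607 and 0.0521), and Dhcr7 was not called without preparation 1 (edgeR adjusted p = 0.0675).

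**Figure D4:**
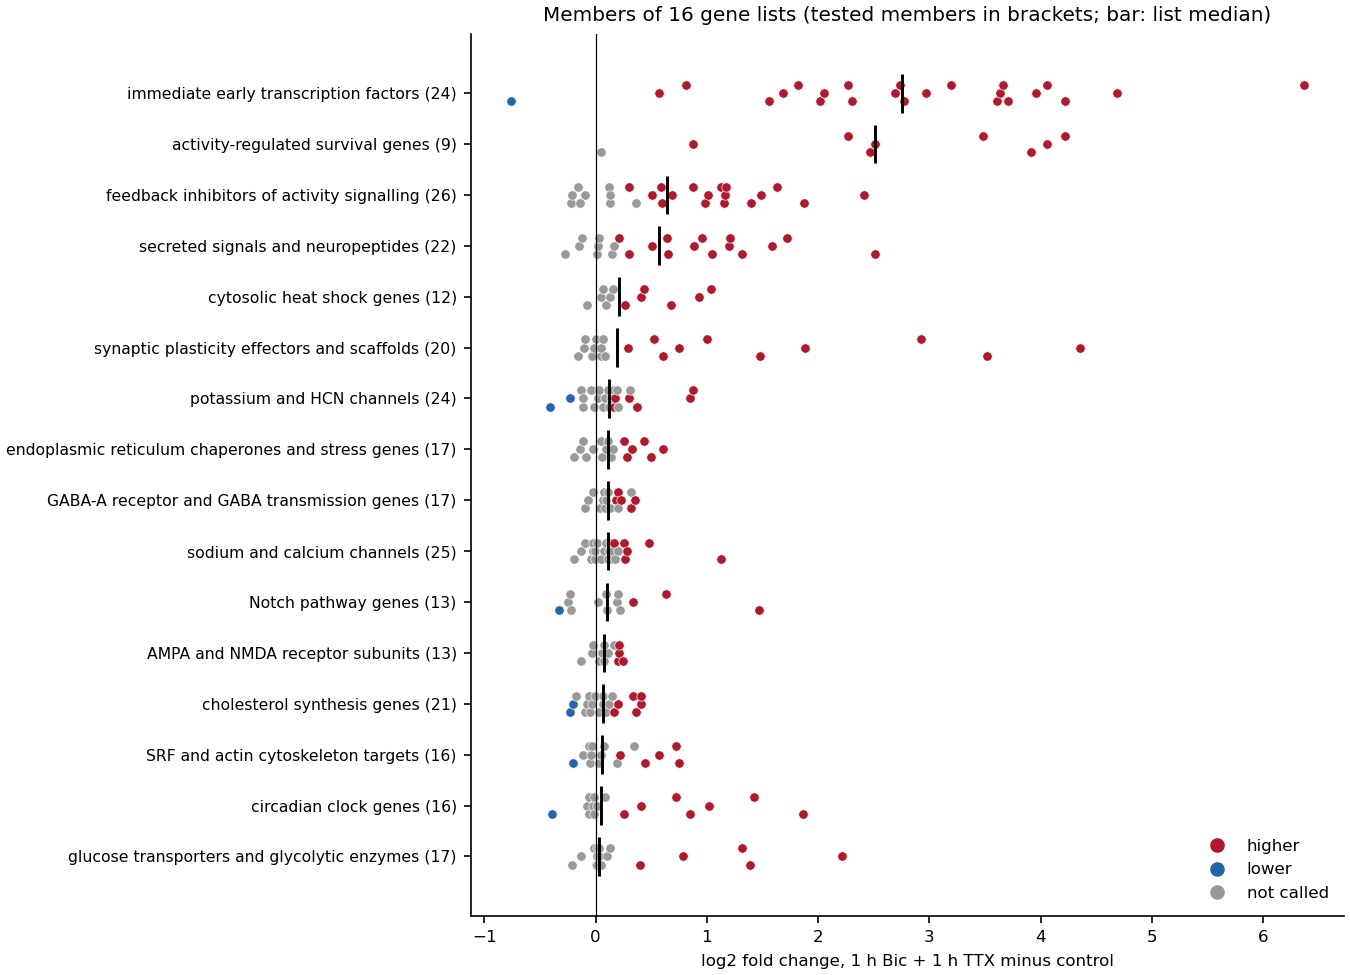
Log2 fold changes between 1 h Bic + 1 h TTX and the control of the tested members of 16 gene lists (1 point a gene, red higher, blue lower, grey not called, bar at the list's median), ordered by median. Immediate early factors and survival genes have medians of 2.75 and 2.51, and the channel, receptor and metabolic lists lie close to 0 with single genes far to the right.

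The falls were small. The 10 largest at a mean of at least 1 CPM, each in 5 of 5 preparations, were those of Zc3hav1l, Etaa1, Nup37, Zfp14, Zfp712, Col15a1, Hs1bp3, Zc3h6, Parp16 and the long noncoding RNA Gm17322. Zc3hav1l, a CCCH zinc finger gene, had 2.39, 2.56, 2.92, 2.52 and 3.203 CPM in the controls and 0.916, 1.05, 0.873, 1.21 and 1.52 CPM after TTX, with no overlap (−1.26 ± 0.14, edgeR adjusted p = 6.01e-05). Etaa1, an activator of the replication stress kinase ATR, went from 7.34 ± 1.68 to 3.26 ± 0.667 CPM (−1.16 ± 0.14, edgeR adjusted p = 0.000109). Hs1bp3, Nup37 and Parp16, the last 2 encoding a nuclear pore subunit and an ADP-ribosyltransferase of the endoplasmic reticulum, had means close to the control at 1 h Bic. Hs1bp3 held 8.66 ± 0.656 CPM in the control, 8.54 ± 0.911 at 1 h Bic, 4.12 ± 0.608 after TTX and 4.36 ± 0.478 at 2 h Bic (log2 difference of TTX to 2 h Bic −0.099 ± 0.092, edgeR adjusted p = 0.445). For Nup37 the 4 means were 2.68, 2.72, 1.203 and 1.29 CPM, and for Parp16 2.76, 2.94, 1.31 and 1.35. Of the 10, Zfp712 and Etaa1 were above 2 h Bic, by 1.17 ± 0.14 and 0.37 ± 0.12 (edgeR adjusted p = 3.57e-06 and 0.0254), and Gm17322 was below it (−0.60 ± 0.18, edgeR adjusted p = 0.0158). Genes named Zfp, Zkscan or Zscan, a group formed after the falls were seen, numbered 369 among those tested, with 132 lower (35.8%) and 42 higher, against 10.2% lower among all genes outside this and the ribosomal and mitochondrial groups.

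To describe the fate of activity-regulated genes without the 10 compared libraries, they were defined by the comparison of 2 h with 0.5 h Bic, which shares preparations but no library with them. By the same edgeR fit 1780 of 15039 genes (11.8%) were activity-raised and 2129 (14.2%) activity-lowered. The sets therefore describe genes that changed between 0.5 h and 2 h of Bic, not all genes that answer to firing. A gene as high at 0.5 h as at 2 h is in neither set. Of the activity-raised genes 1771 were tested here, and 1081 (61%) were higher than the control after TTX, against 13.3% of all genes, 1 was lower and 689 (38.9%) were not called. Their median log2 fold change was 0.35. Of the activity-lowered genes 2128 were tested, 941 (44.2%) were lower than the control, against 10.8% of all genes, 39 were higher and 1148 (53.9%) were not called, with a median of −0.19. Against 1 h Bic, 839 activity-raised genes were higher after TTX and 71 lower, where 14.9% of all genes were higher and 14.5% lower. Against 2 h Bic, whose libraries also define the set, 220 were higher and 670 lower. There 15.8% of all genes were higher and 16.2% lower.

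**Figure D5:**
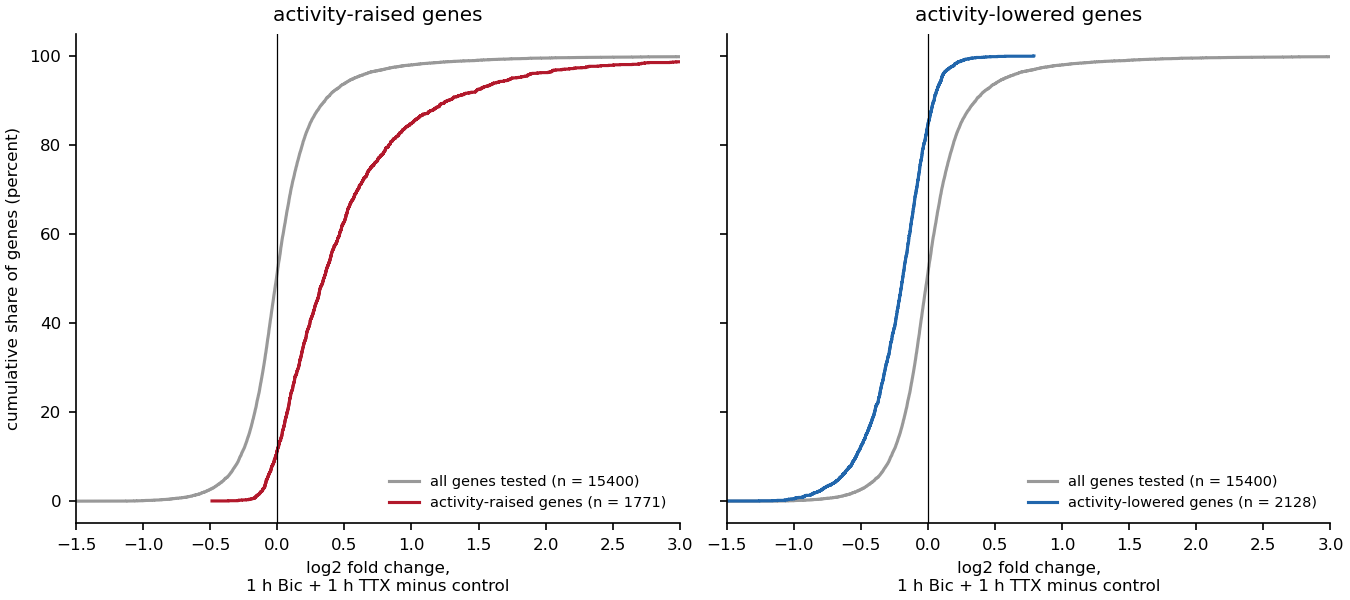
Cumulative share of genes by log2 fold change between 1 h Bic + 1 h TTX and the control, for the 1771 activity-raised genes (left, red), the 2128 activity-lowered genes (right, blue) and all 15400 genes (grey). The red curve is shifted to the right of the grey one, with a long upper tail, and the blue curve to the left by a smaller amount.

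The called activity-raised genes with the highest CPM, which is not per length, were Nefl, Nnat, Atp2a2, Nptxr and Cltc, of which Nefl, the light neurofilament subunit, had the largest difference (806 ± 38.7 to 1229 ± 95.02 CPM, 0.60 ± 0.046, edgeR adjusted p = 3.44e-06). Atp2a2, the calcium pump of the endoplasmic reticulum, and Cltc, the clathrin heavy chain, were above the control by 0.37 ± 0.051 and 0.36 ± 0.047 (edgeR adjusted p = 0.000373 and 0.000267). The calls of Nnat and Nptxr were lost without the block (edgeR adjusted p = 0.192 and 0.319), that of Nnat also without preparation 1 or 6 (edgeR adjusted p = 0.0702 and 0.0631) and that of Nptxr without preparation 1, 6, 7 or 8 (edgeR adjusted p = 0.0767, 0.0805, 0.0576 and 0.102). Those of highest CPM that were not called include App (0.056), Hsp90ab1 (0.063) and Syp (−0.017; 0.021 without preparation 3). Among the activity-lowered genes the called ones of highest CPM were the tubulin gene Tubb3 (−0.28 ± 0.049), the axon guidance effector gene Dpysl2 (−0.42 ± 0.061), and Zbtb18 and Neurod6, transcription factors of excitatory neurons (−0.32 ± 0.045 and −0.22 ± 0.052). Tubb3 and Neurod6 were not called without the block (edgeR adjusted p = 0.0884 and 0.129), nor was Neurod6 without preparation 1 or 7 (edgeR adjusted p = 0.0566 and 0.0601). Epm2aip1, 1 of the 39 activity-lowered genes above the control after TTX, was higher by a small amount (0.18 ± 0.051, edgeR adjusted p = 0.027), a call lost without the block and without preparation 7 or 8 (edgeR adjusted p = 0.113, 0.095 and 0.123).

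The mRNAs encoded in the mitochondrial genome were not called against the control. These 7 tested transcripts of respiratory chain subunits had log2 differences to the control from −0.094 to 0.062 after TTX and none was called. After 2 h Bic, where 15% of all genes were below the control and 29.3% differed in either direction, 5 of the 7 had been below it. After TTX all 7 were called above 2 h Bic and 6 above 1 h Bic, where 15.8% and 14.9% of all genes were higher. mt-Cytb, a subunit of complex III, held 1403 ± 231 CPM in the control, 1197 ± 201 at 1 h Bic, 1214 ± 244 at 2 h Bic and 1402 ± 249.8 after TTX. Its log2 difference after TTX was 0.20 ± 0.039 to 2 h Bic and 0.22 ± 0.044 to 1 h Bic (edgeR adjusted p = 0.000741 and 0.0016), and −0.0082 to the control, with the opposite sign without preparation 1, 7 or 8 (0.00039, 0.026 and 0.020). For mt-Nd5, a subunit of complex I, the difference was 0.25 ± 0.045 to 2 h Bic (edgeR adjusted p = 0.000252) and −0.060 ± 0.064 to the control. The differences of mt-Nd2 and mt-Nd4 to the control were 0.0075 and 0.062. Celf2, an activity-lowered splicing factor gene, was likewise not called (−0.055).

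The annotated span, from the first to the last base of the gene, had a median of 23.5 kb over all genes tested, 35.98 kb among those higher after TTX and 16.99 kb among those lower, but 9.34 kb among the 72 at least 4-fold higher. The 839 activity-raised genes above 1 h Bic had a median span of 30.4 kb and the 71 below it 6.102 kb. Reads per gene grow with transcript length and with them the power to call a gene, so these spans are descriptions.

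Promoter windows were found for 11380 of the 15400 genes. The CRE was in the windows of 3.55% of these genes, of 5.84% of the higher and 2.39% of the lower ones, and of 7 of the 53 genes (13.2%) that were at least 4-fold higher and had a window. The AP-1 site TGANTCA was in 6.08%, 6.95%, 5.86% and 11.3% of the same groups, the EGR site GCGTGGGCG in 1.45%, 1.82%, 1.62% and 7.55%, and the CArG box in 1.62%, 2.34%, 0.925% and 1.89%. Both strands were searched, and the CRE and AP-1 letters cannot overlap in full. Activity-raised genes above the control after TTX had the CRE in 6.99% of 830 genes with a window and the other activity-raised genes not called in 5.62% of 498. A match says only that the letters are present.

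Cell composition was read from marker lists, whose called counts stand against 13.3% of all genes higher and 10.8% lower. Neuronal markers summed to between 7618 and 8606 CPM in the controls and between 8419 and 8996 after TTX, higher in 5 of 5 preparations. Nefl and Map2 were called higher and Tubb3 lower, and without the block 1 of the 8 was higher and 0 lower. Interneuron markers summed to between 1356 and 2042 and between 1671 and 2463 CPM and were higher in 5 of 5 preparations, with 3 of 6 called, among them Gad1 and Gad2, and 0 of 6 without the block. Astrocyte markers summed to between 997 and 1336 and between 1021 and 1565 CPM, higher in 4 of 5 preparations, with 0 of 8 called. Of the 7 oligodendrocyte lineage markers tested 1, Olig2, was lower, against 10.8% of all genes, and 0 were without the block. Without preparation 3 or 8, 1 of the 7 was higher. Their sum lay between 114 and 190.1 and between 98.1 and 164 CPM. Microglial, endothelial and fibroblast markers had 0 called genes and sums of at most 7.24, 3.82 and 137 CPM after TTX. Without preparation 3, 2 fibroblast markers were higher, and 1 without preparation 6. Without preparation 7, 1 endothelial marker was higher, and without preparation 8, 1 astrocyte marker. Fewer cells of a type and less RNA per cell cannot be told apart in such bulk samples, and the part of cell composition in the results was not tested.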

How the data were processed

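The authors made strand-specific poly-A libraries, read single ends on a NextSeq instrument, aligned the reads with STAR 2.5.4b to GRCm38 and counted uniquely assigned reads per gene with featureCounts 1.6.5 against Ensembl, and deposited raw counts per gene. Versions are from the submitters' processing notes. Symbols and coordinates were taken from GENCODE M21 for 54409 of 54532 gene IDs.

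Genes kept by filterByExpr (minimum count 10) were tested with edgeR 4.0.16 (R 4.3.3), TMM normalization, a robust quasi-likelihood fit and the preparation as a block, with Benjamini-Hochberg adjustment over all genes tested and a threshold of 0.05. Printed levels are CPM after TMM normalization over the 20 libraries of the control, 1 h Bic, 2 h Bic and TTX groups. The study's own test, DESeq2 without a block on genes with at least 1 read, was run as an alternative with DESeq2 1.42.0. Preparation numbers come from the labels. Deviations from the group means correlated between samples of the same preparation with r from 0.36 to 0.66, over 13461 genes, against a mean of −0.13 between different preparations. No 2 libraries were identical. With the block, the p-values measure how much the difference between the compared groups varied from preparation to preparation, beside count noise. Differences in level between preparations are taken up by the block.

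Other alternatives were other filters, RLE size factors, all 45 libraries in 1 fit and leaving out each preparation. On simulated data with 200 changed genes of 15257 for the comparison with the control, the blocked fit recovered 48.4%, 82%, 94.8% and 96.8% of changes of 1.25, 1.5, 2 and 4-fold, and 7.04% of its calls were false. Without the block it recovered 6.4%, 59.2%, 85.2% and 96.4%, with 0% false. In the data 24% of genes were called, a far larger share than was changed in the simulation. Recovery and false share depend on that share, so these values need not hold for the data.

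The rule for named genes took 15 genes followed in every library, the 10 largest rises and falls, the 2 highest, lowest and most counted members of each list, and the 5 most counted called and uncalled genes of each activity set. Klf10, Klf4, Btg2, Ier2, Ccn1, Dusp6, Nr4a2, Egr3, Egr4, Junb and Kcna4 are outside it and were chosen after their values were seen. Another 9 genes the rule took are not described by value; they were uncalled, with log2 differences of at most 0.216 in size. A further 4 genes the rule took, 1 of them called higher and 3 not called, are not reported here. The members and lists were chosen with earlier results of these data known. Cnn1, Ddit3, Hspb1, Aldoa, Heyl, Mog, Itgam, P2ry12 and Cldn5 were not tested.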

Additional observations from a re-analysis of the deposited data

Results flagged for a closer look

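Among the 30 groups of 5 libraries screened, those of the 15 followed genes in the control and after TTX, 1 held a library set apart from the others by more than Dixon's 95% critical value. It was the control of preparation 8 for Atf3, at 27.96 CPM, where the next highest control had 7.27 CPM (gap ratio 0.869). Chance gives about 1 in 20 groups, or 1.5 of 30. Without preparation 8 the log2 fold change of Atf3 to the control was 4.78 (edgeR adjusted p = 1.15e-09), against 4.22 with it.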

How the results depend on the processing

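Without the replicate block 1294 genes were higher and 915 lower than the control, and on genes with at least 1 read 1332 and 792. DESeq2 without the block called 1463 and 1076. Leaving out 1 preparation gave between 1484 and 2399 higher and between 870 and 2081 lower genes, the fewest without preparation 7 and the most without preparation 3. No gene was called in opposite directions under any of these alternatives. Without the block on genes with at least 1 read, 600 activity-lowered genes were lower than the control in place of 941. On a log2(CPM + 0.5) scale the share of the 1 h rise that remained was 83.4% for Npas4, 59.6% for Nr4a1, 66.1% for Arc and 28.3% for Dusp1, so these shares depend on the scale. Leaving out 1 preparation left between 974 and 1118 activity-raised genes higher and between 649 and 1032 activity-lowered genes lower than the control.

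The sign of 7 uncalled differences changed when 1 preparation was left out, with log2 values from −0.065 to 0.079 for Ccn1, −0.039 to 0.13 for Grin2b, −0.065 to 0.026 for mt-Cytb and −0.049 to 0.021 for Syp against the control. Against 1 h Bic they ran from −0.29 to 0.0062 for Egr4 and from −0.062 to 0.28 for Mir212, and against 2 h Bic from −0.057 to 0.027 for Egr3. DESeq2 without the block gave 0.0012 for mt-Cytb. Of 1675 values of 129 genes against the control, 1563 kept direction and side of the threshold, 90 lost the call, 14 gained it and 8 changed sign. The causes were not tested. Depth limits the low-count genes, such as Esm1, Mir132 and Mir212, most.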
